A study of Homo sapiens with 18 samples.

Results

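The genes described here are 41 genes grouped as interferon-stimulated, a set chosen by symbol. Most are antiviral effectors that type I interferon induces in most cells, and several are transcription factors that switch them on. All 41 were found by symbol among the 20365 genes of each of the 2 expression tables, and all were kept in the account, whatever their level. The study measured polyadenylated RNA in PC3, a prostate cancer cell line, in 6 groups of 3 libraries. In the knockdown experiment, cells in RPMI with 10% fetal calf serum carried a lentiviral short hairpin RNA (shRNA): a control hairpin (Control KD), one against Elongin B (EloB KD) or one against Elongin C (EloC KD). In the peptide experiment, cells in 2.5% serum received a BC-box peptide at 12.5 µM for 24 h: the wild-type sequence (WT peptide), a mutant (Mutant peptide) or a scrambled control (Scrambled peptide). All libraries come from one cell line, the labels do not give the number of hairpins per target or whether infected cells were selected, and they do not say whether the replicates came from different cultures, so the spread behind each p-value may be technical. Elongin B and Elongin C form a dimer that joins substrate receptors to cullin-RING ubiquitin ligases through the receptors' BC box, and that also binds the elongation factor Elongin A.

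As background, type I interferons bind the IFNAR1 and IFNAR2 receptor chains, and the kinases JAK1 and TYK2 phosphorylate STAT proteins, among them STAT2. With IRF9 these form the ISGF3 complex, which binds the interferon-stimulated response element (ISRE) in promoters of many of the genes studied here. The products sense viral RNA, block its translation, degrade it or stop virus entry. Many tumour lines keep some of these genes on without added interferon, through unphosphorylated ISGF3, through IRF1 or through low-level sensing of their own nucleic acids.

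RefSeq promoter windows of 250 bases before to 50 bases after an annotated start (GRCh38.p14) were at hand for 33 of the 41 genes. The ISRE core GAAANNGAAA was searched on both strands (on the other strand it reads TTTCNNTTTC). It occurred in 24 of the 33 genes (72.7%), beside 1255 of all 35116 windows (3.57%). The shorter core of the interferon-gamma activated site, TTCNNNGAA, occurred in 10 of 33 (30.3%) beside 7.66% of all windows. A gene was counted if any of its windows matched, and some genes had several windows. The shares of genes and of windows are therefore in unlike units. All of these are matches of letters and not measured binding. The windows around one ISRE core are shown for genes that the results turn on, 5′ to 3′ on each gene's own strand, with the core in capitals, so that the common element can be seen in genes whose RNA behaved differently.
ISG15: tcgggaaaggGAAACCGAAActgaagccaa
OAS3: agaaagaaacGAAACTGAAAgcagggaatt
IFITM1: caaacagcagGAAATAGAAActtaagagaa
IFITM3: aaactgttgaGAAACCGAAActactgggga
PARP9: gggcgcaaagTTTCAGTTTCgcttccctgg
PARP14: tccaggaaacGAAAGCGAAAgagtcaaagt
ISG20: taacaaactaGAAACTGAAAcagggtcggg
They lie at chr1:1013380-1013409 (ISG15, plus strand), chr12:112938321-112938350 (OAS3, plus), chr11:313990-314019 (IFITM1, plus), chr11:320876-320905 (IFITM3, minus), chr3:122564322-122564351 (PARP9, minus), chr3:122680800-122680829 (PARP14, plus) and chr15:88638937-88638966 (ISG20, plus). PARP9 and DTX3L are neighbours that start in opposite directions on chromosome 3 (GENCODE on GRCh38: PARP9 122527924 to 122564577, minus strand; DTX3L 122564238 to 122575203, plus strand). The capitals in the PARP9 window, chr3:122564332-122564341, are also the ISRE core of DTX3L: they begin 41 bases before a PARP9 start and 6 bases before the DTX3L start. No core was matched in the windows of HERC6, XRN1, OAS1, STAT2, IRF1 or IRF9, which says only that these letters are not in those windows.

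Libraries of the knockdown experiment held 40.3 to 57.2 M reads and those of the peptide experiment 31.7 to 34.7 M reads, and the 41 genes took 0.185 to 0.313% and 0.144 to 0.219% of them. ELOB had 2626, 4118 and 4950.3 normalised counts in replicates 1, 2 and 3 of Control KD and 596, 478 and 535 in EloB KD, and ELOC had 4797, 4097 and 4547 in Control KD and 492, 497 and 558 in EloC KD. On the log2 scale these targets fell by 2.82 and 3.12 (limma, adjusted p = 3.5e-05 and 1.4e-07). Epithelial KRT8 and KRT18 and mesenchymal VIM and CD44 were present in every library (lowest normalised count 1981), while KLK3, the prostate-specific antigen gene, was at 0 in all of them. Of 8 marker genes of other cells, the leukocyte genes PTPRC and CD3E stayed at or under 13.4 and 3.16, and CD14, VWF and DCN at or under 21.8, 10.2 and 17.2. CD68, PECAM1 and COL1A1 were read in every library, and several markers differed between groups, as given beside the comparisons. In such bulk RNA, fewer cells that express a gene and less of its RNA per cell cannot be told apart.

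Levels below are DESeq2-normalised counts per library, in the order of replicates 1, 2 and 3. They carry no correction for transcript length, so they are compared between libraries and never between genes. Differences are log2 fold changes of the normalised count plus 1, tested with limma in one fit per experiment and called at a Benjamini-Hochberg adjusted p under 0.05 over all genes with a mean of at least 10. That filter kept 41 of 41 members among 13764 genes in the knockdown experiment and 40 among 13105 in the peptide experiment. The member left out, DDX58 (RIG-I, the cytoplasmic sensor of 5′-triphosphate RNA), had only 2.84 to 21.1 across the knockdown experiment and 2.95 to 6.73 across the other. On the GENCODE annotation no other gene measured here overlaps DDX58. Whether its reads were assigned to another name, or lost to a gene not measured here, could not be checked. Its values may therefore not reflect its RNA level. Because same-numbered libraries deviated together in both experiments, a second fit held the replicate number as a block, and its calls are given as those of the paired fit. That check was over all genes. Over the members alone, the correlations of same-numbered libraries ran from 0.53 to 0.92 in the peptide experiment but from -0.35 (Control KD replicate 2 with EloB KD replicate 2) to 0.56 in the knockdown experiment. The 2 tables were normalised separately, so levels are not tested across them.

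**Figure D1:**
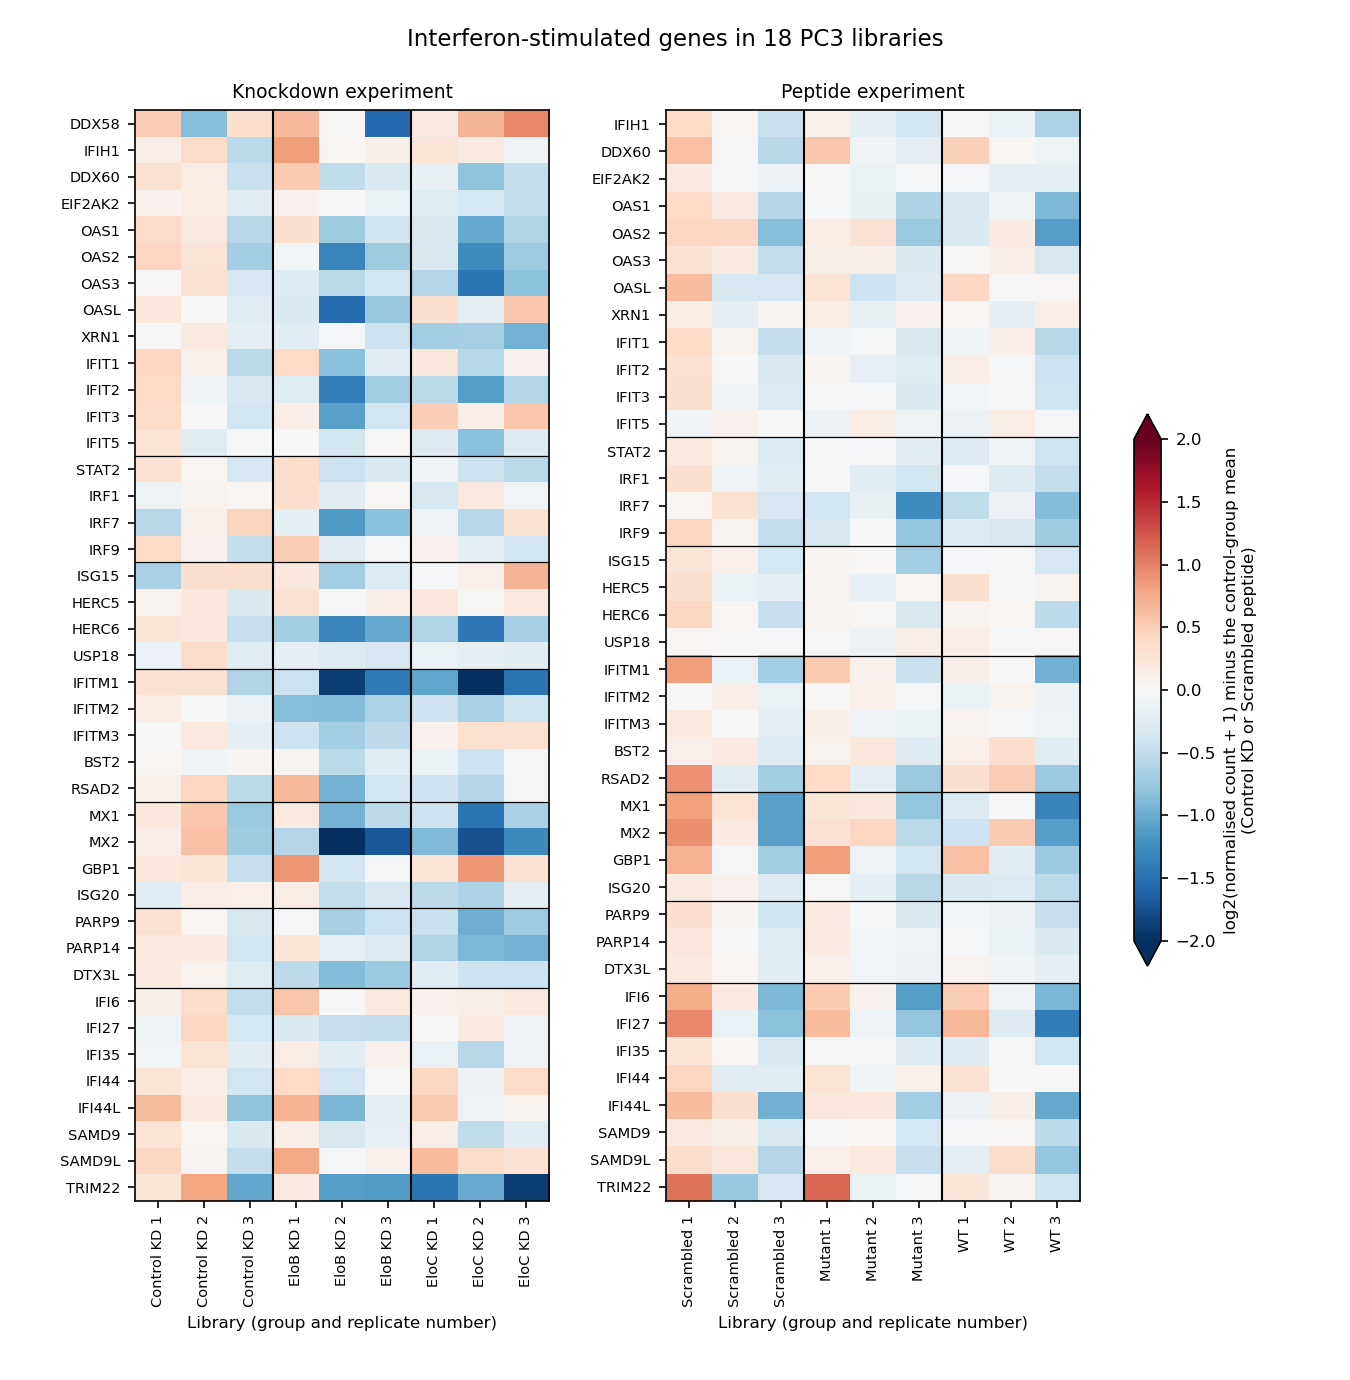
Colour gives the log2 normalised count of each member in each of the 18 libraries, less the mean of the Control KD libraries (left, 41 genes) or of the Scrambled peptide libraries (right, 40 genes); rows are grouped by role. The darkest blue in the left panel is in IFITM1, MX2 and TRIM22 under the knockdowns, and in the right panel replicate 3 of each peptide group is bluer than replicate 1 for most members.

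With Elongin B knocked down, 6 interferon-stimulated genes were lower and none was called higher. They were the membrane proteins IFITM1, IFITM2 and IFITM3, which hinder virus fusion, the ISG15-ligase relative HERC6, the nuclear-pore GTPase MX2, and the ubiquitin ligase DTX3L. Beside the 6 of 41 members called lower (14.6%), 11.2% of all genes were lower, and beside the 0 of 41 called higher, 9.34% of all genes were higher, so the share of lower members was near that of genes at large. In limma 9 of 41 members had an unadjusted p under 0.05, all of them lower, beside 34.1% of all genes in either direction. edgeR called 5 members and DESeq2 8, none of them higher. Shares over all genes are not given for these tools in any comparison. The median log2 fold change of the members was -0.24 (32 of 41 below 0), against 0.00 over all genes, and it came to -0.08 without EloB KD replicate 2, -0.47 without EloB KD replicate 1 and -0.39 without Control KD replicate 3. In the paired fit 12 members were lower and 0 higher, beside 18.8% and 17.5% of all genes; the 6 added were OAS2, OASL, XRN1, IFIT2, PARP9 and IFI27. The paired split turned to 2 higher and 8 lower without Control KD replicate 2 and to 3 higher and 8 lower without EloB KD replicate 2. Without pairing, 3 were lower on leaving out any one of Control KD replicates 1 and 2 and EloB KD replicates 2 and 3. Among the markers, EPCAM was 1189.9, 1342 and 1477 against 1945, 1627 and 1573 in Control KD, and endothelial PECAM1 was 2239, 2154 and 2016 against 1837, 1784 and 1279.6, both without overlap. Their part in the members' differences was not tested.

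With Elongin C knocked down, 12 members were lower and again none was called higher. Besides IFITM1, IFITM2, HERC6, MX2 and DTX3L these were OAS3, EIF2AK2, XRN1, IFIT2, PARP9, PARP14 and TRIM22. The 12 of 41 (29.3%) stood beside 21.2% of all genes lower, and the 0 of 41 higher beside 21.3% of all genes higher. In limma 15 of 41 members had an unadjusted p under 0.05, all of them lower, beside 50.9% of all genes in either direction. edgeR called 11 members and DESeq2 13, none of them higher. The median over members was -0.26 (28 of 41 below 0), against 0.01 over all genes, and it came to -0.39 without Control KD replicate 3. The paired fit called 19 members lower and 1 higher, beside 28.3% and 28.7% of all genes; the 7 more that were lower were DDX60, OAS1, OAS2, IFIT5, STAT2, MX1 and ISG20, and the one higher was SAMD9L. The paired split turned to 5 higher and 13 lower without Control KD replicate 2, to 4 higher and 13 lower without EloC KD replicate 1, and to 0 higher and 13 lower without EloC KD replicate 2. Without pairing, 7 were lower on leaving out Control KD replicate 1 or 2, 6 without EloC KD replicate 2 and 8 without EloC KD replicate 3.

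Markers of cell identity also differed in EloC KD. Fibroblast COL1A1 was 2388, 2464 and 1919 against 567, 486 and 657 in Control KD, and DCN was 9.90, 17.2 and 14.7 against 0.942, 0 and 1.22. The epithelial genes EPCAM (574, 366 and 607 against 1945, 1627 and 1573) and KRT18 (2547, 2704 and 3639 against 5136, 6137 and 5796) lay below the control, and CD44 was 40777, 48955 and 38948 against 27729.8, 29544 and 23489. None of these 5 overlapped between the groups, and their part in the members' differences was not tested. The EloB KD and EloC KD comparisons use the same 3 Control KD libraries, so their values are given side by side and are not independent.

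**Figure D2:**
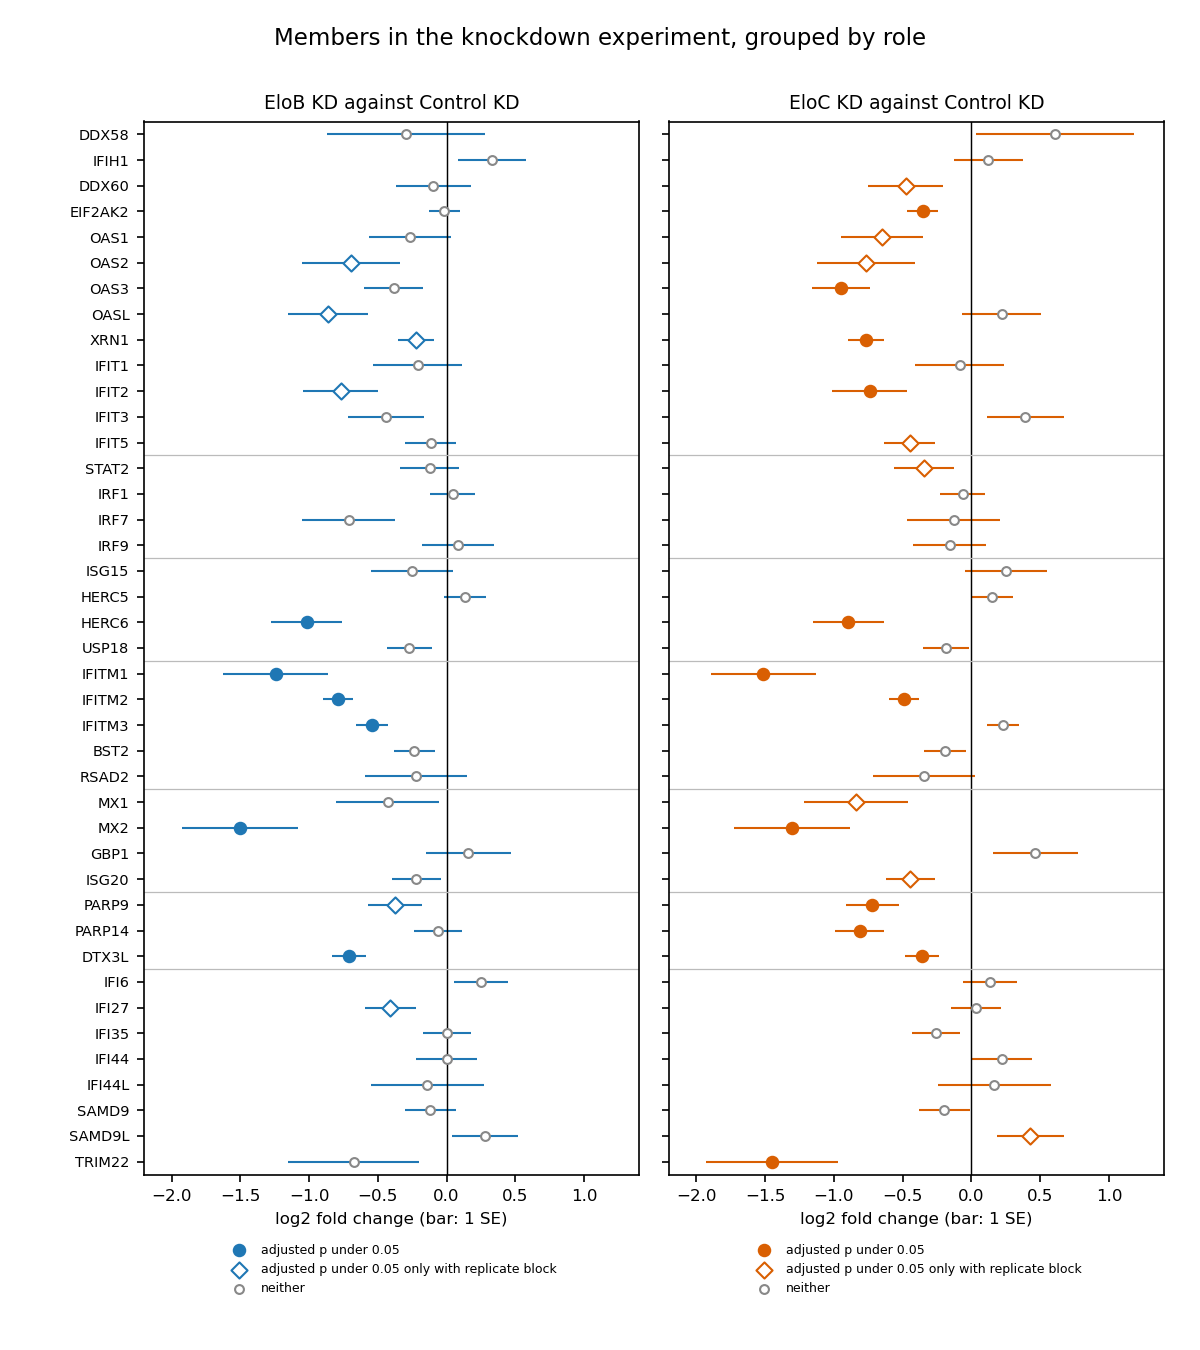
Log2 fold changes of the 41 members (points, with 1 SE) in EloB KD and in EloC KD against Control KD, grouped by role; filled points passed an adjusted p of 0.05 in limma and diamonds passed only in the paired fit. All 6 filled points on the left and all 12 on the right lie below 0.

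The IFITM proteins sit in plasma and endosomal membranes and stop viral envelopes from fusing. IFITM1 had 1337, 1349 and 719.5 in Control KD, 809.7, 294 and 409 in EloB KD and 528, 265 and 397 in EloC KD. Replicate 3 of the control lay below replicate 1 of EloB KD, so those groups overlapped, while every EloC KD library lay below every control library. IFITM1 fell in EloB KD (-1.24 ± 0.38 (SE), adjusted p = 0.042) and in EloC KD (-1.51 ± 0.38 (SE), adjusted p = 0.0089). IFITM2 had 5531, 4922 and 4634 in Control KD, 2769, 2747 and 3222 in EloB KD and 3750.4, 3188 and 3798 in EloC KD, with no overlap of either knockdown with the control. It fell in both (-0.79 ± 0.11 (SE), adjusted p = 0.00087, and -0.49 ± 0.11 (SE), adjusted p = 0.0042). IFITM3 differed between the knockdowns: it had 5143, 5855 and 4485 in Control KD, 3829.6, 3204 and 3560.3 in EloB KD and 5419, 6336 and 6317 in EloC KD. All EloB KD libraries were below the others, and the EloC KD libraries overlapped the control. IFITM3 fell in EloB KD (-0.54 ± 0.12 (SE), adjusted p = 0.0089), had 0.23 ± 0.12 (SE), adjusted p = 0.14 in EloC KD, and was lower in EloB KD than in EloC KD (-0.77 ± 0.12 (SE), adjusted p = 0.00042). IFITM1 and IFITM2 overlap on the annotation and the 3 genes are similar in sequence, so how reads were divided among them is uncertain. The other members of the group named membrane and entry restriction were tetherin (BST2) and viperin (RSAD2). Tetherin holds budding virions at the cell surface, and viperin makes a chain-terminating nucleotide. Neither passed in any knockdown comparison. BST2 ranged from 7553 to 11464 and RSAD2 from 170.0 to 518. The IFITM1 call in EloB KD was lost without any one of Control KD replicates 1 and 2, EloB KD replicates 2 and 3 and EloC KD replicate 3 (adjusted p = 0.059 to 0.13).

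DTX3L and PARP9 form a ligase complex that modifies histones, and PARP14 is a mono-ADP-ribosyltransferase of macrophage and interferon signalling. DTX3L had 9386, 8859 and 7141 in Control KD, 5834, 4622 and 5043 in EloB KD and 7164, 6305 and 6217 in EloC KD. The EloB KD libraries were the lowest, below all of EloC KD, and EloC KD overlapped the control by one library. DTX3L fell in EloB KD (-0.71 ± 0.12 (SE), adjusted p = 0.0030) and less in EloC KD (-0.36 ± 0.12 (SE), adjusted p = 0.037), and the direct comparison of the knockdowns passed (-0.35 ± 0.12 (SE), adjusted p = 0.039). PARP9, which shares its ISRE core with DTX3L, had 9328, 7879.6 and 6132 in Control KD, 7532, 4844 and 5694 in EloB KD and 5606, 3880.3 and 4635 in EloC KD. Here the EloC KD libraries were all below the control and EloB KD overlapped both. PARP9 fell in EloC KD (-0.72 ± 0.20 (SE), adjusted p = 0.013). In EloB KD it had -0.37 ± 0.20 (SE), adjusted p = 0.21 (paired fit, 0.024), and between the knockdowns 0.35 ± 0.20 (SE), adjusted p = 0.17 (paired fit, 0.020). PARP14 had 10610.5, 10390.2 and 7208 in Control KD, 10973, 8224 and 7697 in EloB KD and 6136, 4965 and 4802 in EloC KD. EloC KD lay below both other groups, which overlapped each other. PARP14 fell in EloC KD (-0.81 ± 0.18 (SE), adjusted p = 0.0039), had -0.06 (95% interval -0.45 to 0.32) in EloB KD, and the direct comparison put EloB KD above EloC KD (0.75 ± 0.18 (SE), adjusted p = 0.0055). The PARP9 call in EloC KD was lost without EloC KD replicate 2 (adjusted p = 0.056), and the DTX3L call in EloC KD without any one of Control KD replicates 1 and 2, EloB KD replicate 3 and EloC KD replicates 2 and 3 (adjusted p = 0.053 to 0.12). PARP9 and DTX3L overlap on opposite strands, and whether the counting used strand is not given in the sources used here.

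Among the double-stranded RNA sensors and RNA-binding effectors, 4 of 13 fell in EloC KD and 0 of 13 passed in EloB KD (8 and 4 lower in the paired fit). Over all genes the shares lower were 21.2% and 11.2% (28.3% and 18.8% in the paired fit). OAS3, which makes the 2-5A messenger that activates RNase L, had 8907, 10834 and 6942 in Control KD, 7351, 6009 and 6803 in EloB KD and 5819, 3220.0 and 4966 in EloC KD. The EloC KD libraries were below all others. OAS3 fell in EloC KD (-0.95 ± 0.21 (SE), adjusted p = 0.0048) and the direct comparison put EloB KD above EloC KD at the edge of the threshold (0.56 ± 0.21 (SE), adjusted p = 0.0498). XRN1, the cytoplasmic exonuclease that clears decapped RNA, had 4162, 4706 and 3609 in Control KD, 3574, 4033 and 3086 in EloB KD and 2567, 2602 and 2139.8 in EloC KD. Again EloC KD lay apart below both groups, with -0.77 ± 0.13 (SE), adjusted p = 0.0011 against Control KD and 0.55 ± 0.13 (SE), adjusted p = 0.0064 for EloB KD against EloC KD. EIF2AK2 (PKR), the kinase that halts translation on binding double-stranded RNA, had 11941, 12378 and 9541 in Control KD, 11864, 11261 and 10174 in EloB KD and 9454, 8800.3 and 8087 in EloC KD. Its change in EloC KD was small and just cleared the control's lowest library (-0.36 ± 0.11 (SE), adjusted p = 0.027). IFIT2, which binds AU-rich RNA, fell in EloC KD at the edge of the threshold (-0.74 ± 0.27 (SE), adjusted p = 0.0499) and had nearly the same difference in EloB KD without passing (-0.77 ± 0.27 (SE), adjusted p = 0.073; paired fit, 0.0046). Its libraries held 3216, 2302 and 1946 in Control KD, 2051, 944 and 1501 in EloB KD and 1665, 1137 and 1628 in EloC KD.

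OASL and IFIT3 differed between the knockdowns. OASL, an OAS relative without synthetase activity that strengthens RIG-I signalling, had 1224, 1058 and 886 in Control KD, 861, 358 and 621 in EloB KD and 1310.2, 910.0 and 1519 in EloC KD. All EloB KD libraries lay below all EloC KD libraries, and OASL was lower in EloB KD than in EloC KD (-1.08 ± 0.29 (SE), adjusted p = 0.011). Against Control KD it had -0.86 ± 0.29 (SE), adjusted p = 0.060 in EloB KD and 0.22 ± 0.29 (SE), adjusted p = 0.57 in EloC KD. IFIT3, the scaffold of the IFIT complex, had 2464, 1055 and 1719 in EloB KD and 3153, 2441 and 3294.5 in EloC KD, with one EloB KD library above one of EloC KD, and was lower in EloB KD (-0.83 ± 0.28 (SE), adjusted p = 0.031). IFIT1, which captures RNA lacking cap methylation, did not pass (-0.21 and -0.09), nor did OAS1, OAS2, IFIT5, IFIH1 or DDX60. OAS2 had the widest differences of these, -0.69 ± 0.36 (SE), adjusted p = 0.20 in EloB KD and -0.77 ± 0.36 (SE), adjusted p = 0.11 in EloC KD, with 8192, 7263 and 3795 in Control KD, 5867, 2442 and 3720.4 in EloB KD and 4863, 2554 and 3694 in EloC KD. Leaving out a single library ended the calls of OAS3 between the knockdowns for any one of Control KD replicate 1, EloB KD replicates 1, 2 and 3 and EloC KD replicates 2 and 3 (adjusted p = 0.056 to 0.18), of IFIT3 for any one of EloB KD replicates 2 and 3 and EloC KD replicates 1 and 3 (adjusted p = 0.063 to 0.096), of EIF2AK2 in EloC KD for any one of Control KD replicates 1 and 2 and EloC KD replicates 2 and 3 (adjusted p = 0.064 to 0.10), and of IFIT2 for any one of Control KD replicates 1 and 2, EloB KD replicate 3 and EloC KD replicates 1, 2 and 3 (adjusted p = 0.060 to 0.17). Between the knockdowns, EIF2AK2 (0.34 ± 0.11 (SE), adjusted p = 0.032) was no longer called without any one of EloB KD replicates 1 and 2 and EloC KD replicates 2 and 3 (adjusted p = 0.069 to 0.11).

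**Figure D3:**
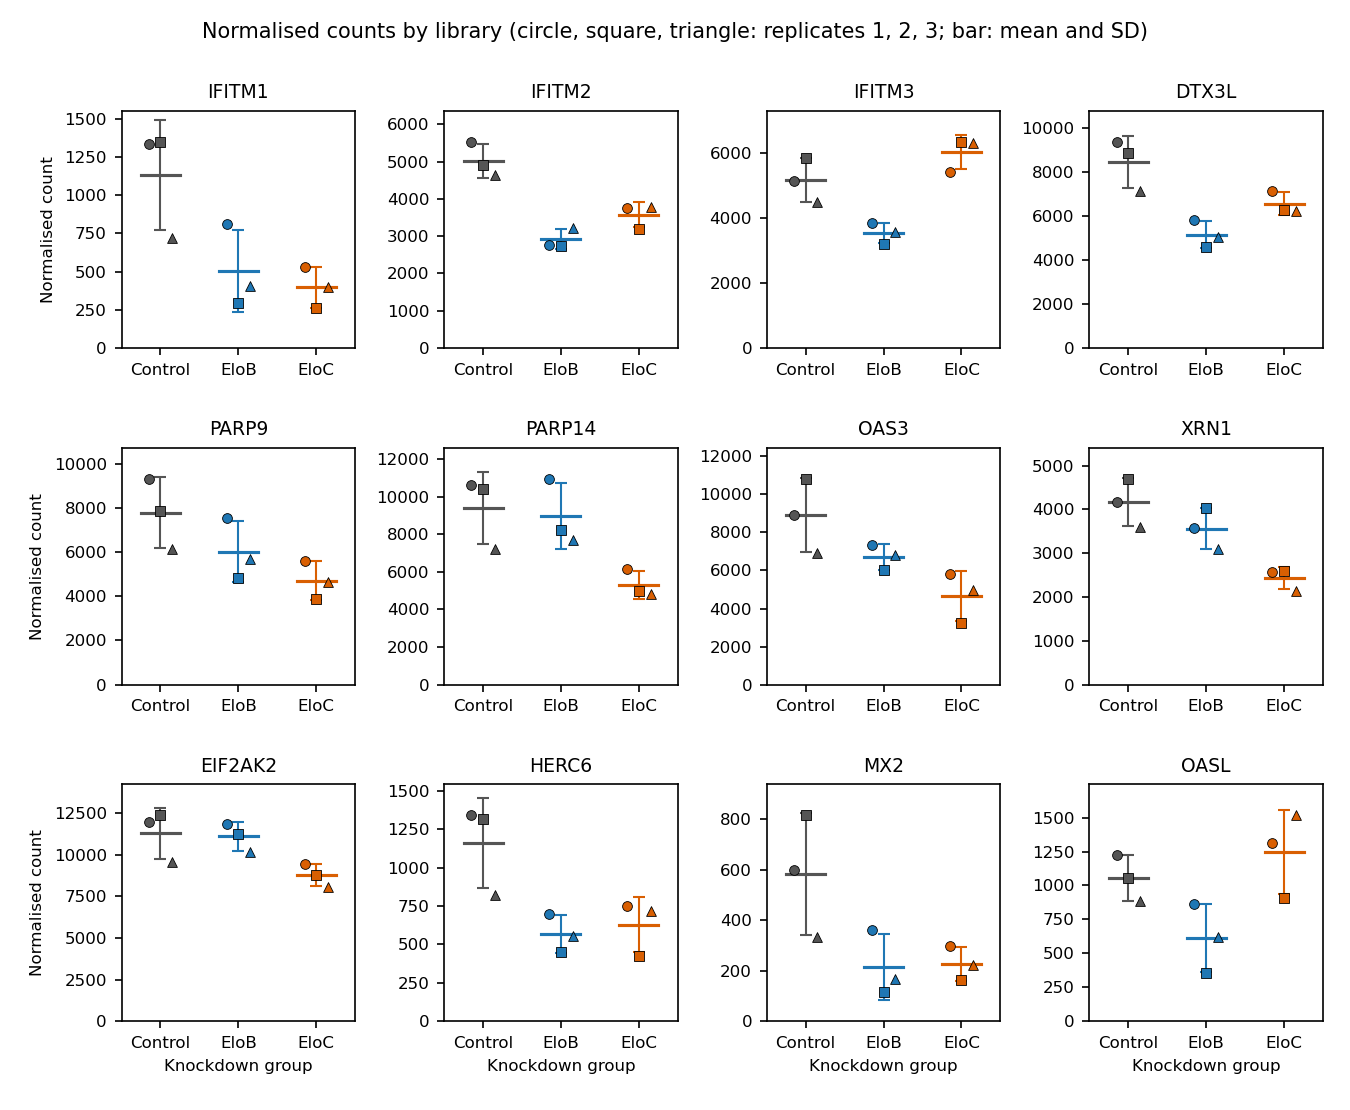
Normalised counts of 12 members in the 9 knockdown libraries (circles, squares and triangles for replicates 1, 2 and 3; bars, mean and SD, n = 3), each axis starting at 0. EloC KD lies lowest for PARP14, OAS3 and XRN1, EloB KD lies lowest for IFITM3 and DTX3L, and both lie low for IFITM2 and HERC6.

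HERC6 and MX2 fell in both knockdowns. HERC6, a HECT-domain relative of the ISG15 ligase HERC5, had 1342, 1315 and 823 in Control KD, 695, 452 and 556 in EloB KD and 748, 421 and 716 in EloC KD. Neither knockdown overlapped the control (-1.02 ± 0.26 (SE), adjusted p = 0.020, and -0.89 ± 0.26 (SE), adjusted p = 0.018). MX2, which blocks nuclear import of viral capsids, had 597, 816 and 334 in Control KD, 362, 116 and 168 in EloB KD and 296, 162 and 224 in EloC KD. The spread within groups was wide, and one EloB KD library lay above the lowest control (-1.503 ± 0.42 (SE), adjusted p = 0.030, and -1.30 ± 0.42 (SE), adjusted p = 0.029). Its close relative MX1, a cytoplasmic GTPase that traps viral nucleocapsids, had 3345, 4173 and 1720.3 in Control KD, 3287, 1501 and 1997 in EloB KD and 2165, 1045 and 1848 in EloC KD and did not pass (-0.43 ± 0.38 (SE), adjusted p = 0.46, and -0.84 ± 0.38 (SE), adjusted p = 0.095). TRIM22, a ubiquitin ligase that restricts viral transcription, was low in every group, with 205, 301 and 84.01 in Control KD, 197, 80.7 and 79.5 in EloB KD and 62.3, 85.8 and 46.3 in EloC KD. It fell in EloC KD (-1.45 ± 0.48 (SE), adjusted p = 0.031), although one EloC KD library lay just above the lowest control. TRIM22 overlaps TRIM5 on the annotation. Without any one of Control KD replicates 1 and 2 and EloB KD replicates 2 and 3 (adjusted p = 0.056 to 0.070) the HERC6 call in EloB KD was lost, and in EloC KD without any one of Control KD replicates 1 and 2 and EloC KD replicate 2 (adjusted p = 0.061 to 0.067). MX2 lost its call in EloB KD without any one of Control KD replicates 1 and 2 and EloB KD replicates 2 and 3 (adjusted p = 0.079 to 0.10) and in EloC KD without any one of Control KD replicates 1 and 2 and EloC KD replicates 2 and 3 (adjusted p = 0.064 to 0.11), and TRIM22 without any one of Control KD replicates 1 and 2 and EloC KD replicates 1 and 3 (adjusted p = 0.067 to 0.12). The calls that held whichever of the 9 libraries was left out were IFITM2, IFITM3 and DTX3L in EloB KD, and OAS3, XRN1, IFITM1, IFITM2 and PARP14 in EloC KD.

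Several genes often used as interferon reporters did not pass in either knockdown. ISG15, the ubiquitin-like modifier, had 2382, 4626 and 4679 in Control KD, 4311, 2309.9 and 3071 in EloB KD and 3629.6, 4010.0 and 5993 in EloC KD, with log2 differences of -0.25 (95% interval -0.91 to 0.41) and 0.25 (-0.40 to 0.91). The control libraries alone ranged widely, and both intervals include changes in both directions. IFI6, a mitochondrial and endoplasmic reticulum protein, had 4532, 5423 and 2976 in Control KD, with differences of 0.25 ± 0.20 (SE) and 0.13 ± 0.20 (SE). USP18, which removes ISG15 and dampens IFNAR2 signalling, ranged from 238 to 386, and IFI44L, whose product lowers the interferon response, from 881 to 2686. None of the 4 transcription factors passed: STAT2 had -0.12 ± 0.22 (SE) and -0.34 ± 0.22 (SE), IRF1 0.04 ± 0.17 (SE) and -0.06 ± 0.17 (SE), IRF9 0.08 ± 0.26 (SE) and -0.16 ± 0.26 (SE), and IRF7 -0.71 ± 0.34 (SE) and -0.13 ± 0.34 (SE) in EloB KD and EloC KD. STAT2 was lower in EloC KD in the paired fit (adjusted p = 0.016). Of the 8 other effectors, TRIM22 alone passed, and SAMD9L, a brake on cell growth and translation, was the member higher in EloC KD in the paired fit (0.43 ± 0.13 (SE), adjusted p = 0.016; without the block the SE was 0.24 and adjusted p = 0.18).

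Comparing the knockdowns directly, 4 members were higher under EloB KD (EIF2AK2, OAS3, XRN1 and PARP14) and 5 were lower (OASL, IFIT3, IFITM2, IFITM3 and DTX3L). These shares, 9.76% and 12.2% of members, were below the 22.3% and 23.8% of all genes called higher and lower. The median over members was 0.07, against -0.01 over all genes, and it came to -0.14 without EloB KD replicate 1, -0.08 without EloC KD replicate 2 and 0.24 without EloB KD replicate 2. The paired fit gave 6 higher and 6 lower, beside 28.7% and 30.7% of all genes. The IFITM2 difference was small (-0.30 ± 0.11 (SE), adjusted p = 0.043) and lost its call without any one of Control KD replicate 2, EloB KD replicates 1 and 2 and EloC KD replicates 1 and 3 (adjusted p = 0.060 to 0.13), and that of DTX3L without any one of Control KD replicate 2, EloB KD replicates 2 and 3 and EloC KD replicates 1, 2 and 3 (adjusted p = 0.0505 to 0.13).

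The 97 other genes of the interferon pathway, in 7 lists from ligands and receptors to further targets, were called in both directions in the knockdowns. Their counts stand beside 21.3% of all genes higher and 21.2% lower in EloC KD, and 9.34% higher and 11.2% lower in EloB KD. With so few genes a list, several counts lie near these shares, and nothing particular to a list is read from them. Of 11 interferon genes only IFNE, the epithelial interferon epsilon, passed the filter on low values. IFNE had 95.1, 82.5 and 82.8 in Control KD, 52.2, 43.2 and 41.7 in EloB KD and 76.2, 40.7 and 77.9 in EloC KD, and fell in EloB KD (-0.92 ± 0.26 (SE), adjusted p = 0.033). IFNB1 was at 0 to 3.96 in the knockdown libraries and IFNL1 at 0 to 4.95. Of the 6 receptor genes 5 were tested. In EloC KD 4 fell and 1 rose, and in EloB KD 2 fell. IFNLR1, the chain specific to interferon lambda, had 1068, 949 and 871 in Control KD, 635, 596 and 604 in EloB KD and 428, 297 and 350.5 in EloC KD, without overlap (-0.65 ± 0.15 (SE), adjusted p = 0.011, and -1.43 ± 0.15 (SE), adjusted p = 5.7e-05). The type I chains IFNAR1 and IFNAR2 fell in EloC KD by 0.43 and 0.46 on the log2 scale (adjusted p = 0.0011 and 0.024), and the interferon-gamma chain IFNGR1 rose there (0.81 ± 0.09 (SE), adjusted p = 8.6e-05), with 2785, 2973 and 2686 against 1686, 1589 and 1544 in Control KD.

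Of the 12 genes of JAK-STAT signalling and feedback 11 were tested, with 1 higher and 3 lower in EloC KD and 0 higher and 2 lower in EloB KD. SOCS3, the feedback inhibitor that carries a BC box, fell in EloB KD (-0.50 ± 0.15 (SE), adjusted p = 0.041) and rose in EloC KD (0.81 ± 0.15 (SE), adjusted p = 0.0018). STAT3, whose gene PC3 cells lack, had at most 1 read in a library. In the nucleic acid sensing list 11 of 13 genes were tested, with 2 higher and 2 lower in EloC KD and 0 higher and 3 lower in EloB KD. MAVS, the mitochondrial adaptor of RIG-I and MDA5, had 12695, 13929 and 12392 in Control KD, 15680.1, 16197 and 14664 in EloB KD and 4842, 4469.8 and 4435 in EloC KD, and fell in EloC KD (-1.504 ± 0.08 (SE), adjusted p = 2.7e-06), with 0.26 ± 0.08 (SE), adjusted p = 0.051 in EloB KD. The knockdowns differed (1.76 ± 0.08 (SE), adjusted p = 1.6e-06). STING1, the adaptor of the DNA sensor cGAS, fell in EloB KD (-1.18 ± 0.15 (SE), adjusted p = 0.00060) and was lower there than in EloC KD (-0.97 ± 0.15 (SE), adjusted p = 0.00048). ADAR, which edits double-stranded RNA, fell in both (-0.76 and -0.64, adjusted p = 0.0029 and 0.0029).

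The list of 26 further interferon-stimulated genes had 25 tested, with 2 higher and 10 lower in EloC KD and 1 higher and 2 lower in EloB KD. The 6 with the smallest adjusted p in EloC KD all fell: CMTR1, a cap methyltransferase (-1.18 ± 0.10 (SE), adjusted p = 2.2e-05), the secreted lectin-binding protein LGALS3BP (-1.18), the cytidine deaminase APOBEC3G (-2.45), the dNTPase SAMHD1 (-0.78), SLFN5 (-0.76) and the nuclear-body protein SP110 (-0.96). Of 14 interferon-gamma targets, 11 tested, 2 were higher and 3 lower in EloC KD, and 2 higher and 0 lower in EloB KD. APOL6 (-1.60 ± 0.19 (SE), adjusted p = 0.00012) and the tryptophanyl-tRNA synthetase WARS1 (-1.03 ± 0.10 (SE), adjusted p = 4.6e-05) fell in EloC KD, and BATF2 (1.48 ± 0.25 (SE), adjusted p = 0.00099) rose. Class I antigen presentation had 15 of 15 genes tested, 3 higher and 1 lower in EloC KD, and 3 higher and 0 lower in EloB KD. HLA-B and HLA-C rose in EloB KD (0.84 and 0.73, adjusted p = 0.0029 and 0.015). HLA genes are similar in sequence and polymorphic, so their counts are uncertain.

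No member passed the test with the peptides when the groups were compared without pairing. With the WT peptide against the Scrambled peptide, limma called 0 of 40 members higher and 0 lower, beside 0.839% and 0.595% of all genes. In that comparison 1 member had an unadjusted p under 0.05, beside 13.4% of all genes. For Mutant against Scrambled and for WT against Mutant, limma called 0 of 40 in both directions, beside 0% of all genes in each direction. No member had an unadjusted p under 0.05 in these comparisons, beside 8.71% and 6.85% of all genes. edgeR and DESeq2 on the recovered reads also called 0 members in each of these 3 comparisons. The median log2 fold change of the members was -0.15 for WT against Scrambled (32 of 40 below 0), -0.08 for Mutant against Scrambled (29 of 40) and -0.07 for WT against Mutant (27 of 40), against medians of all genes within 0.003 of 0. These medians turned above 0 on leaving out 1 library: to 0.01 for WT against Scrambled without either Scrambled peptide replicate 1 or WT peptide replicate 3, and to 0.09 and 0.03 for Mutant against Scrambled without Scrambled peptide replicate 1 or Mutant peptide replicate 3. For WT against Mutant it came to 0.06 without WT peptide replicate 3 and 0.01 without Mutant peptide replicate 1. Without Scrambled peptide replicate 3 the medians were -0.35 for WT against Scrambled and -0.26 for Mutant against Scrambled. These comparisons share groups, so their values are not independent. Among the markers, the macrophage gene CD68 was 1618, 1925 and 1678 with WT against 2451, 2726 and 2498 with Scrambled, and PECAM1 was 767, 772 and 689.6 against 1158, 948 and 909, both without overlap, and their part in the members' values was not tested.

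Holding the replicate number as a block, the picture in the WT peptide group differed. The paired fit called 12 of 40 members lower and 0 higher with the WT peptide against the Scrambled peptide, beside 8.23% and 7.96% of all genes. The 12 were IFIH1, EIF2AK2, OAS1, OAS2, STAT2, IRF1, IRF7, MX1, ISG20, PARP9, PARP14 and SAMD9. For the Mutant peptide against the Scrambled peptide it called 4 lower (OAS1, IRF1, IRF7 and ISG20) and 0 higher, beside 4.59% and 3.72%. For WT against Mutant it called 2 lower (OAS2 and PARP14) and 0 higher, beside 1.69% and 2.4%. Counted by sign alone, 20 of 40 members were lower with the WT peptide in all 3 same-numbered pairs, beside 24.0% of all genes, and 1 was higher in all 3, beside 24.7%. For Mutant against Scrambled 8 of 40 were lower in all 3 pairs, beside 22.6%, and 2 higher, beside 22.8%. For WT against Mutant 15 of 40 were lower, beside 19.04%, and 4 higher, beside 19.99%.

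ISG20, an exonuclease that degrades single-stranded viral RNA, was the member with an unadjusted p under 0.05. It had 1423, 1332 and 1049.8 with the Scrambled peptide, 1280.3, 1111 and 857 with the Mutant peptide and 1027, 1046 and 869 with the WT peptide. The WT peptide libraries lay below all Scrambled peptide libraries, with a narrow gap between the nearest libraries. The difference was -0.36 ± 0.16 (SE), adjusted p = 0.35, and 0.00060 in the paired fit. OAS1 had 2919, 2512 and 1464 with Scrambled, 2167, 1979.9 and 1432 with Mutant and 1790.2, 2076 and 1186 with WT. Its replicate 3 was the lowest in each group, the groups overlapped, and within each replicate number Scrambled was the highest (-0.43 ± 0.28 (SE), adjusted p = 0.58; paired fit, 0.0015). IRF7, the factor that amplifies interferon-alpha genes, had 164, 196 and 126 with Scrambled, 122, 143 and 66.8 with Mutant and 112, 147 and 86.6 with WT, with the same ordering of Scrambled above both others in every replicate number (-0.50 ± 0.30 (SE), adjusted p = 0.53; paired fit, 0.015). For Mutant against Scrambled, IRF7 had -0.59 ± 0.30 (SE), adjusted p = 0.62 (paired fit, 0.0094). MX1 had 1222, 839 and 325 with Scrambled, 824, 811 and 402 with Mutant and 571, 705 and 274 with WT. Its level ranged widely between replicates, and its difference for WT against Scrambled was -0.53 ± 0.51 (SE), adjusted p = 0.74 (paired fit, 0.014). The other paired calls for WT against Scrambled were smaller, from -0.13 for EIF2AK2 to -0.41 for OAS2. Without Scrambled peptide replicate 1 the paired fit called 4 members lower and 2 higher in place of 12 lower, without Scrambled peptide replicate 2 it called 7 lower, and without WT peptide replicate 1 it called 5 lower.

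**Figure D4:**
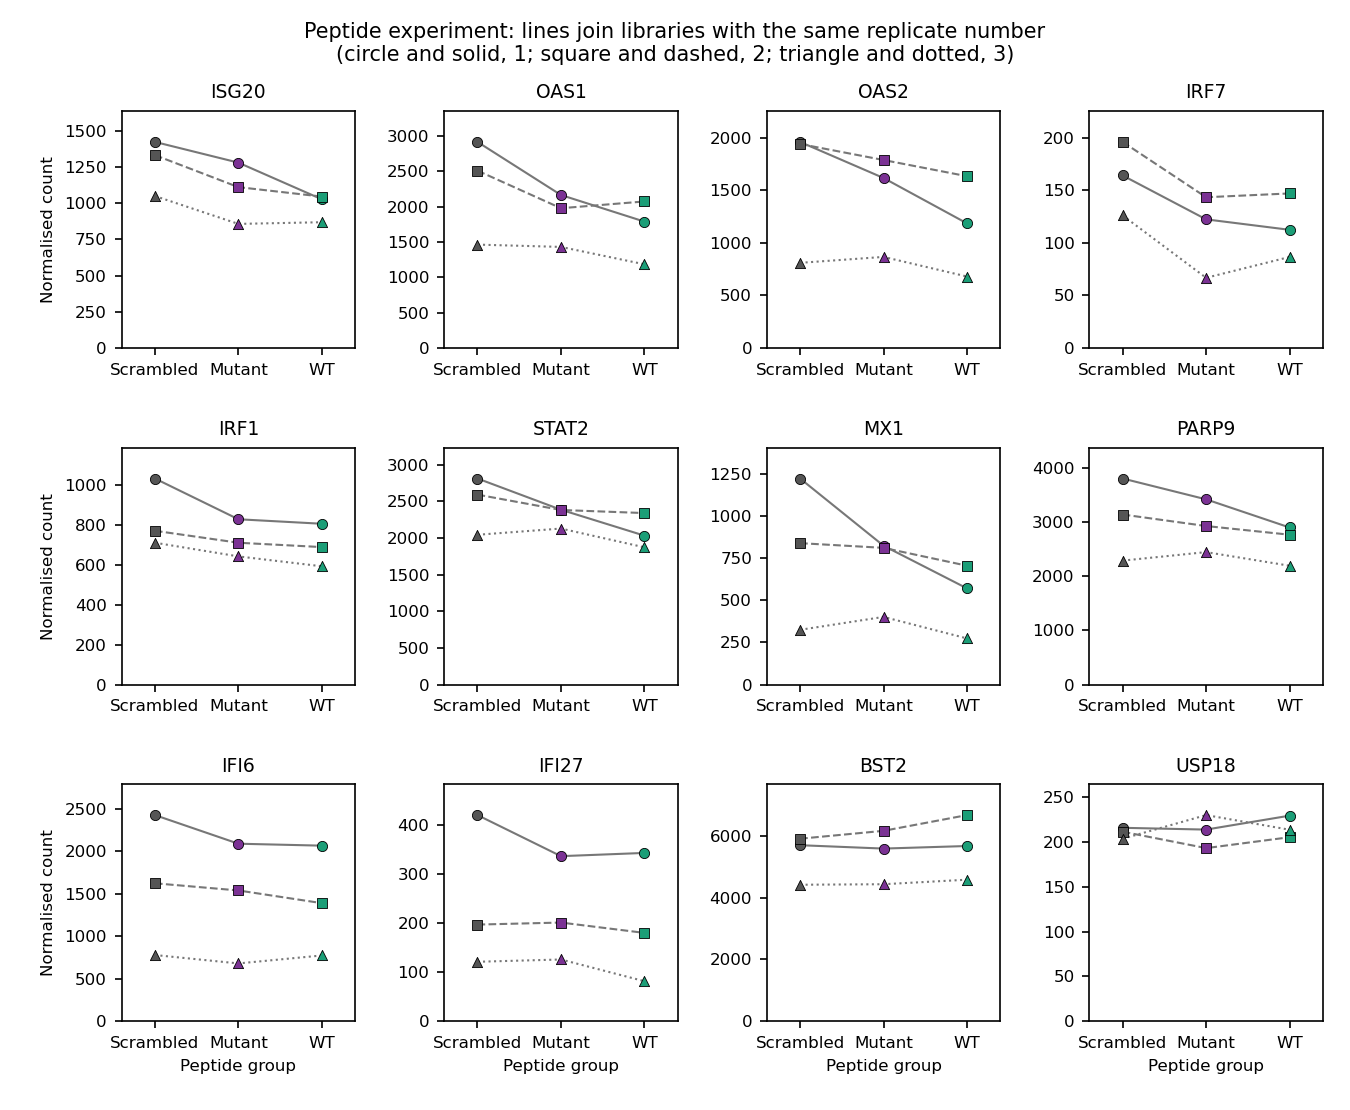
Normalised counts of 12 members with each peptide, lines joining libraries of the same replicate number, each axis starting at 0. Replicate 3 (triangles) lies lowest in each group for ISG20, OAS1, OAS2, IRF7, IFI6, IFI27 and BST2, USP18 ranges from 193 to 230.3, and for ISG20 and IRF7 every line starts highest at Scrambled.

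Members whose paired fit did not pass included IFI6 and IFI27, both among the most variable. IFI6 had 2427, 1624 and 779 with the Scrambled peptide, 2089.7, 1539 and 680.2 with the Mutant peptide and 2067, 1389.9 and 774 with the WT peptide. IFI27, a small mitochondrial protein, had 420.1, 197 and 121 with Scrambled, 336, 201 and 126 with Mutant and 343, 180.0 and 81.5 with WT. In both, replicate 1 was highest and replicate 3 lowest in each of the 3 groups, and the groups overlapped. The intervals for WT against Scrambled were wide: -1.31 to 1.003 for IFI6 and -1.63 to 0.97 for IFI27. IFITM2, called like DTX3L in all 3 knockdown comparisons, had 2618, 2858 and 2379 with Scrambled, 2615, 2789 and 2551 with Mutant and 2389, 2735 and 2412 with WT, and its interval for WT against Scrambled was -0.23 to 0.11. For DTX3L that interval was -0.31 to 0.18, for PARP14 -0.41 to 0.11 and for XRN1 -0.26 to 0.25.

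In the pathway lists, limma called no gene in any peptide comparison without the block. In the paired fit for WT against Scrambled, 2 of 25 further interferon-stimulated genes were higher and 11 lower, while each of the other 6 lists had 0 genes higher and 0 to 2 lower. In that fit 7.96% of all genes were higher and 8.23% lower. APOBEC3G had 341, 137 and 182 with the Scrambled peptide, 292, 136 and 183 with the Mutant peptide and 166, 77.7 and 94.7 with the WT peptide, and was lower in the paired fit with WT against Scrambled (-0.93 ± 0.40 (SE), adjusted p = 0.35; paired fit, 2.0e-05) and against Mutant (-0.85 ± 0.40 (SE), adjusted p = 0.75; paired fit, 0.00040). APOBEC3G has close paralogs, so its counts are uncertain. Among genes too low to test, IFNB1 had 5.00, 4.92 and 2.95 with the Scrambled peptide, 1.02, 0 and 0 with the Mutant peptide and 0, 0 and 0 with the WT peptide, at most 5 reads in a library.

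The interferon-stimulated genes varied between replicates more than most genes did. The median SD within groups was 0.36 on the log2 scale over the 41 members in the knockdown experiment, against 0.17 over all genes tested, and 0.32 against 0.10 in the peptide experiment. In the knockdown experiment 37 of 41 members, and in the peptide experiment 39 of 40, had a spread above the median gene. The widest in the peptide experiment were IFI27 (0.89), MX2 (0.81), IFI6 (0.80) and MX1 (0.78), and the narrowest were USP18 (0.09), IFITM2 (0.11) and EIF2AK2 (0.11). In the knockdown experiment, IFITM2 (0.13), EIF2AK2 (0.15), IFITM3 (0.15), DTX3L (0.17) and XRN1 (0.18) were narrowest, and DDX58 (0.82), TRIM22 (0.74), MX2 (0.66) and IFI44L (0.66) widest. OAS3, called in EloC KD, had 0.33 there, and IFITM1 had 0.60.

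This spread followed the replicate number in the peptide experiment. There the replicate number carried a median of 80.8% of a member's variance and the peptide 7.45%, against 42.1% and 24.8% over all genes. In the knockdown experiment the replicate number carried 23.3% and the knockdown 34.6%, against 15.6% and 69.6%. Replicate 3 was the lowest of all 3 peptide groups in 31 of 40 members, beside 10.0% of all genes, and replicate 1 the highest in 19 of 40, beside 4.87%. IFI6 had 97.8% of its variance with the replicate number, and GBP1, a GTPase that attacks pathogen vacuoles, 95.5%. BST2 had 95.3%. The mean log2 level of the members, less that of the Scrambled peptide libraries, was 0.40, 0.02 and -0.43 in replicates 1, 2 and 3 with the Scrambled peptide, 0.16, -0.02 and -0.37 with the Mutant peptide, and 0.02, 0.00 and -0.50 with the WT peptide. In replicate 1 the groups lay apart, and in replicates 2 and 3 they lay close together. Mitochondrial reads, 3.32 to 3.55% in replicate 1, 4.29 to 4.82% in replicate 2 and 3.64 to 4.03% in replicate 3, also followed the number, and their part in the spread was not tested.

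In the knockdown experiment the mean member level, less that of Control KD, was 0.16, 0.17 and -0.32 in Control KD, 0.11, -0.65 and -0.42 in EloB KD, and -0.18, -0.49 and -0.25 in EloC KD. EloB KD replicate 1 lay with the control, and Control KD replicate 3, the library with the lowest depth (40.3 M reads), lay below 2 of the EloC KD libraries. Whether depth had a part was not tested. The members moved together across libraries. With group means removed, the correlation of a member with the mean of the others over 9 libraries had a median of 0.86 in the knockdown and 0.92 in the peptide experiment, and exceeded 0.7 for 28 of 41 and 31 of 40 members. Among other genes, 7.36% and 5.20% exceeded 0.7 with the members' mean. These 9 points share their groups and libraries, and the values are descriptions. Least like the rest in the peptide experiment were XRN1 (-0.12), IFIT5 (-0.01) and USP18 (0.02), which had 0.12, 0.47 and 0.49 in the knockdown experiment. IFITM1 followed the others closely in both (0.98 and 0.99), as did OAS1 (0.97 and 0.96). DDX58, at its few reads, had 0.07 in the knockdown experiment.

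**Figure D5:**
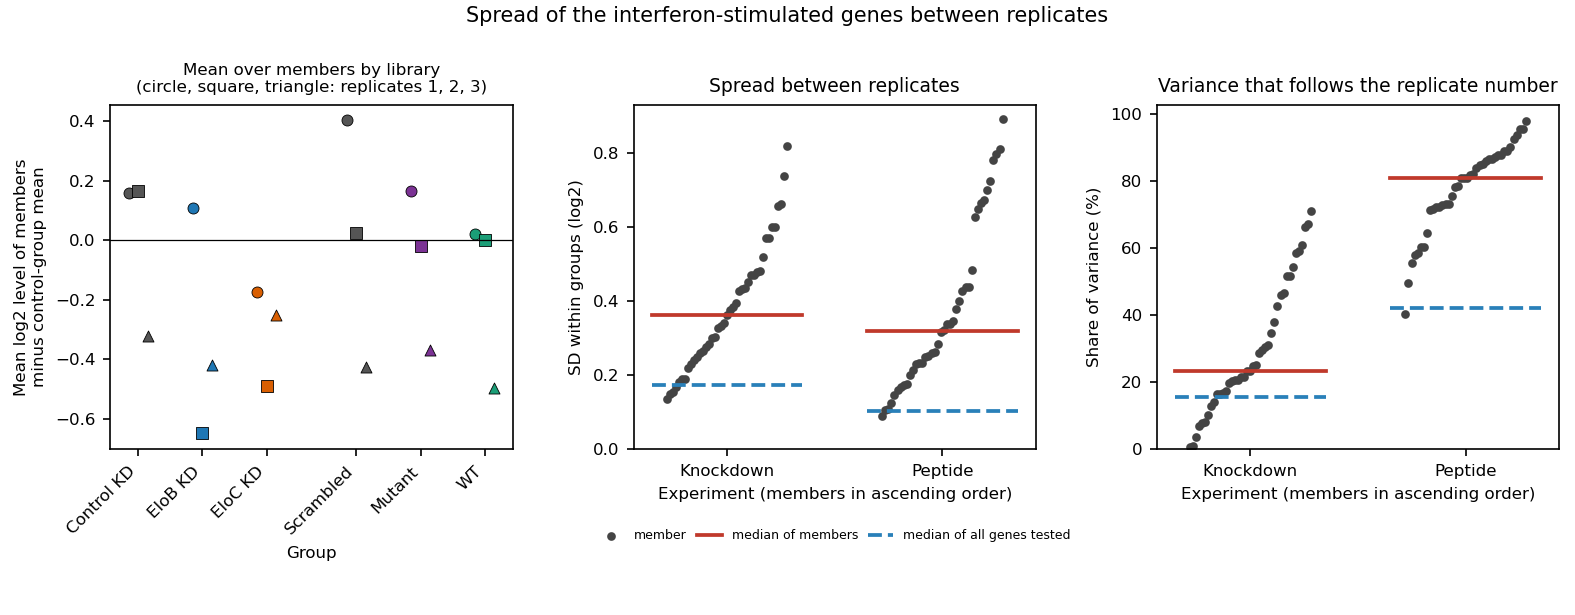
Left, mean log2 level of the members in each library, less the control group's mean (circles, squares and triangles for replicates 1, 2 and 3); middle, SD within groups of each member; right, share of each member's variance that follows the replicate number. Red lines are medians of the members and blue dashed lines medians of all genes tested: 0.36 and 0.17 (knockdown) and 0.32 and 0.10 (peptide) in the middle, 23.3 and 15.6% and 80.8 and 42.1% on the right.

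The annotated positions of the main genes are given for reference (GENCODE on GRCh38). IFITM2 spans chr11:307631-315272 and contains IFITM1 (chr11:313506-315272), with IFITM3 beside them on the minus strand (chr11:319669-327537). OAS1, OAS3 and OAS2 are consecutive on the plus strand of chromosome 12 (112906777 to 112933222, 112938352 to 112973249 and 112978395 to 113011723). MX2 and MX1 are neighbours on chromosome 21 (41361943 to 41409390 and 41420304 to 41459214), and HERC6 and HERC5 on chromosome 4 (88378739 to 88443111 and 88457117 to 88506163). In each of these clusters neighbours differed in their calls: in EloC KD OAS3 was called and OAS1 and OAS2 were not, MX2 was called and MX1 was not, and HERC6 was called and HERC5 was not, while the paired fit also called OAS1, OAS2 and MX1. RSAD2 overlaps CMPK2, EIF2AK2 overlaps GPATCH11 and some IFIT genes overlap LIPA on the annotation. Whether the clustered neighbours differed from each other was not tested. Of the 12 members lower in EloC KD, 8 had a promoter window and 6 of the 8 held an ISRE core, beside 24 of 33 over all members with a window.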

How the data were processed

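Polyadenylated RNA (TruSeq Stranded mRNA kit, per the labels' protocols) was read in 18 PC3 libraries, 3 in each of 6 groups. The authors deposited normalised counts, a signal per gene, in 1 table per experiment; per the submitters' processing notes reads were assigned to genes of hg38 with featureCounts and scaled with DESeq2. The aligner, versions and strand setting are not given in the sources used here. Deposited values were whole multiples of 1 read within 0.05 of a read in every library, which gave reads and the depth (31.7 to 57.2 M reads).

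Genes whose mean reached 10 across an experiment's 9 libraries were tested with limma 3.58.1 (R 4.3.3) on log2(normalised count + 1), with 3 groups in 1 fit, and p-values adjusted by Benjamini-Hochberg over all genes; the pseudocount understates changes of low genes. edgeR 4.0.16 and DESeq2 1.42.0 ran on the recovered reads as alternatives, and the fits were tested on simulated data. The simulated counts held no effect shared by a replicate number and did not model the members' own spread. They could not test the fits under those conditions. Same-numbered libraries, numbered in the labels' titles, deviated from their group means together (correlations 0.236 to 0.566 for knockdown and 0.254 to 0.715 for peptide). Libraries of different numbers and groups had -0.44 to 0.07 and -0.55 to 0.34. The replicate number was therefore also fitted as a block. The members and lists were chosen with earlier results of these data known. Any member could be named. Of each pathway list, up to 6 called genes per comparison could be named, with any gene under 10 reads in every library. Promoter sequences came from RefSeq (GRCh38.p14).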

Additional observations from a re-analysis of the deposited data

How the results depend on the processing

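The replicate block, for which the numbers pair the libraries, moved the members called from 6 to 12 (EloB KD against Control KD), from 12 to 20 (EloC KD against Control KD), and from 0 to 12, 4 and 2 (WT against Scrambled, Mutant against Scrambled and WT against Mutant peptide). It moved the 9 of EloB KD against EloC KD to 12. An adjusted p below 0.01 left 3, 5 and 3 in the knockdown comparisons, and a change of at least 1.5-fold left 4 for EloB KD against EloC KD. Leaving out each library in turn gave 3 to 8, 6 to 15 and 4 to 10 members in the knockdown comparisons and 0 to 0 in each peptide comparison. With the replicate block those ranges were 10 to 17, 13 to 22 and 8 to 17, then 5 to 16 (7 without Scrambled peptide replicate 2), 1 to 6 and 0 to 4 with the peptides, and quantile normalisation gave 2 for Mutant against Scrambled. The causes were not tested. The block alternatives other than the block itself were chosen after seeing the data. Other filters, pseudocounts, scalings and tools kept each count within 1.5 times. For single members, 243 pairs of a member and a comparison were refitted under the alternatives, including the block and the omission of each library. Of these outcomes 4576 were unchanged, 81 lost a call, 53 gained one and none reversed. The block alternatives other than the block itself were not in that count. DDX58 and most interferon genes had few or no reads, which limits what can be said of them; why was not tested.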
